A study of Mus musculus with 56 samples.

Results

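Interferon-stimulated genes are the genes that a cell switches on when an interferon, a secreted alarm signal of viral or bacterial infection, binds its receptor. In the type I pathway, interferon alpha or beta binds the receptor made of IFNAR1 and IFNAR2, the kinases JAK1 and TYK2 become active, and a complex that includes STAT2 and IRF9 binds a DNA element called the interferon-stimulated response element (ISRE). Interferon gamma acts through another receptor and leads to binding at other elements, the gamma-activated sites (GAS). In the liver these genes are expressed by hepatocytes as well as by Kupffer cells, the resident macrophages, and by other immune cells. The 9 genes described here (Irf7, Isg15, Usp18, Ifit1, Ifit2, Ifit3, Oasl1, Irgm1 and Igtp) were chosen by name from 23813 genes with a name in the RNA table, taking the first listed transcript of each gene. They were listed as known members of the pathway, and the list was made with earlier results of these data known.

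RNA was sequenced from livers of 12 male mice, in 3 groups of 4 biological replicates. For 16 days all 12 mice ate chow low in iodine that contained 0.15% PTU (propylthiouracil), an inhibitor of thyroid hormone production. Hypothyroid wild-type (WT, labelled PTU) mice received vehicle injections, and hyperthyroid WT mice (PTU_T3) received 5 μg triiodothyronine (T3), the active thyroid hormone, by intraperitoneal injection during the last 4 to 6 days. Hypothyroid L-NCOR1ΔID mice (labelled L-NCORdeltaID, PTU) carry a liver-specific form of the corepressor NCOR1 that lacks the domains binding nuclear receptors such as the thyroid hormone receptor (TR), on a mixed C57BL/6;129S background. The methods of the study name another mixed background for WT littermates of another mutant line, and do not say which WT mice gave the RNA. In comparisons with the mutant, a difference of strain therefore cannot be told apart from the genotype. The driver of the liver-specific deletion and the age of each sequenced mouse are not given in the sources used here, and the L-NCOR1ΔID mice of the study were on average younger than its WT mice. Because both WT groups were made hypothyroid first, no euthyroid level was measured. The question of the comparison between WT groups was which genes respond to T3, and that of the comparison with the mutant was which genes rise in the absence of hormone when NCOR1 cannot bind TR.

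Values are RPKM, reads per kilobase of transcript scaled to the size of the library, a level per length that can be compared between genes. The steps between low values gave a depth of about 21300000 to 26100000 reads for the hyperthyroid WT libraries, 29100000 to 38300000 reads for the hypothyroid WT libraries and 37900000 to 42700000 reads for the L-NCOR1ΔID libraries, so that depth differed with the groups. Dio1, a gene induced by T3, averaged 18.5 ± 26.35 RPKM in hypothyroid WT and 544 ± 74.7 RPKM in hyperthyroid WT (SD, n = 4 each, limma adjusted p = 0.0012). Its level varied widely without hormone, from 0.719 to 57.7 RPKM in hypothyroid WT and from 0.567 to 20.9 RPKM in L-NCOR1ΔID. Thrsp, another target, averaged 322 ± 128 and 1597 ± 651.6 RPKM (limma adjusted p = 0.00081). Both differ in the direction of the hormone labels. Ncor1 itself was at 14.7 ± 0.665 RPKM in hypothyroid WT and at 13.0 ± 0.844 RPKM in L-NCOR1ΔID (SD, n = 4 each, limma adjusted p = 0.20). The mutation removes only part of the transcript, so this level does not check the genotype labels. Hepatocyte markers were present in each library, and of 5 tested after T3 1 rose (Hnf4a) and 2 fell (Alb and Ttr), with Alb, the gene of serum albumin, at 14320 RPKM or more on average in each group. In bulk liver, fewer cells of a type and less RNA per cell cannot be told apart.

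Promoter sequences are shown because the members differed in whether a match to the ISRE, the element of the type I pathway, stands before their start. RefSeq promoter windows (GRCm38.p6, 250 bases before to 50 after the start) were at hand for 8 of the 9 genes, all but Usp18. An ISRE core was searched as GAAANNGAAA on both strands, with overlapping matches allowed. It was found in 5 of the 8 genes (Isg15, Ifit1, Ifit3, Irgm1 and Igtp), in each before the start, and was not found in the windows of Irf7, Ifit2 (2 windows) and Oasl1. Of all 32851 mouse promoter windows, 3.44% held a match to this core, as did 3.99% of the 27025 genes with a window. The 60 bases around the matches are given 5′ to 3′ in the direction of transcription, with the matched bases in capitals.
Isg15: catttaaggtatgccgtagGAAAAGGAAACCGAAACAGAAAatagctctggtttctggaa
Ifit1: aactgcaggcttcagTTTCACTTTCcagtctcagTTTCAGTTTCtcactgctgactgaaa
Ifit3: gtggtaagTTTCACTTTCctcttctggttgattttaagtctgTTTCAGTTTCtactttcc
Irgm1: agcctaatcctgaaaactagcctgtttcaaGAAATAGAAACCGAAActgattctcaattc
Igtp: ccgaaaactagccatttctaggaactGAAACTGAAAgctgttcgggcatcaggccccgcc

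The Isg15 window is chr4:156200856-156200915 on the minus strand and holds 3 overlapping matches between 78 and 57 bases before the start. The Ifit1 window (chr19:34640770-34640829, plus strand) and the Ifit3 window (chr19:34583365-34583424, plus strand) each hold 2 matches, which read TTTC on the strand shown because they lie on the other strand. Irgm1 (chr11:48871421-48871480, minus strand) has 2 overlapping matches that end 15 bases before the start, and Igtp (chr11:58199496-58199555, plus strand) has 1 match from 34 to 25 bases before it. A GAS core, searched as TTCNNNGAA on both strands, was found in the windows of Ifit2 and Igtp, beside 8.3% of all windows and 9.55% of genes. In Igtp the GAS match begins 45 bases before the start and lies apart from the ISRE match, and in Ifit2 it begins 241 bases before the start in 1 of its 2 windows. These matches are letters in a window and say nothing of which factor was bound.

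Each of the 9 genes had its start inside a region that the authors called as acetylated on histone H3 at lysine 9 or 27, a mark of active promoters and enhancers. The list of 37200 regions merges both marks and both WT hormone states and holds no level, so it gives position only. On mm9, with starts from GENCODE M1, the regions over the starts were 2679 bp (Ifit1) to 9604 bp (Usp18) long and reached at least 968 bp upstream of the start. Irf7 lies at chr7:148448605-148452380 on the minus strand under a region at chr7:148450631-148456115, which covers exons of its 5′ part. Ifit2 (chr19:34625184-34650909), Ifit3 (chr19:34658021-34663221) and Ifit1 (chr19:34715361-34724499) are neighbours on the plus strand of chromosome 19, each with a region of its own over its start. The other positions are Isg15 at chr4:155573533-155574927 (minus), Oasl1 at chr5:115373249-115387924 (plus), Usp18 at chr6:121195924-121220934 (plus), Irgm1 at chr11:48675470-48685185 (minus) and Igtp at chr11:58013058-58021093 (plus). Of 12589 expressed genes with a start, 85.1% had a region over it, so that a count of 9 of 9 is near the background.

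After T3, Ifit2 and Irgm1 were higher past the adjusted p of 0.01 but not by the size required (more than 1 on the log2 scale), and Igtp and Isg15 had higher means and Oasl1 a lower one that missed that p. In L-NCOR1ΔID livers the mean of each of the 9 genes was higher than in hypothyroid WT, led by Usp18 and Irf7. Of the 9, 0 passed the adjusted p of 0.01, beside 0.725% of all genes higher and 0.544% lower. Of 35 other type I interferon-stimulated genes, 21 rose after T3, beside 24.5% of all genes, in libraries where 10 of 10 Kupffer cell markers rose as well. With libraries scaled to equal medians 10 of the 35 rose, a count for which no share over all genes is given.

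**Figure D1:**
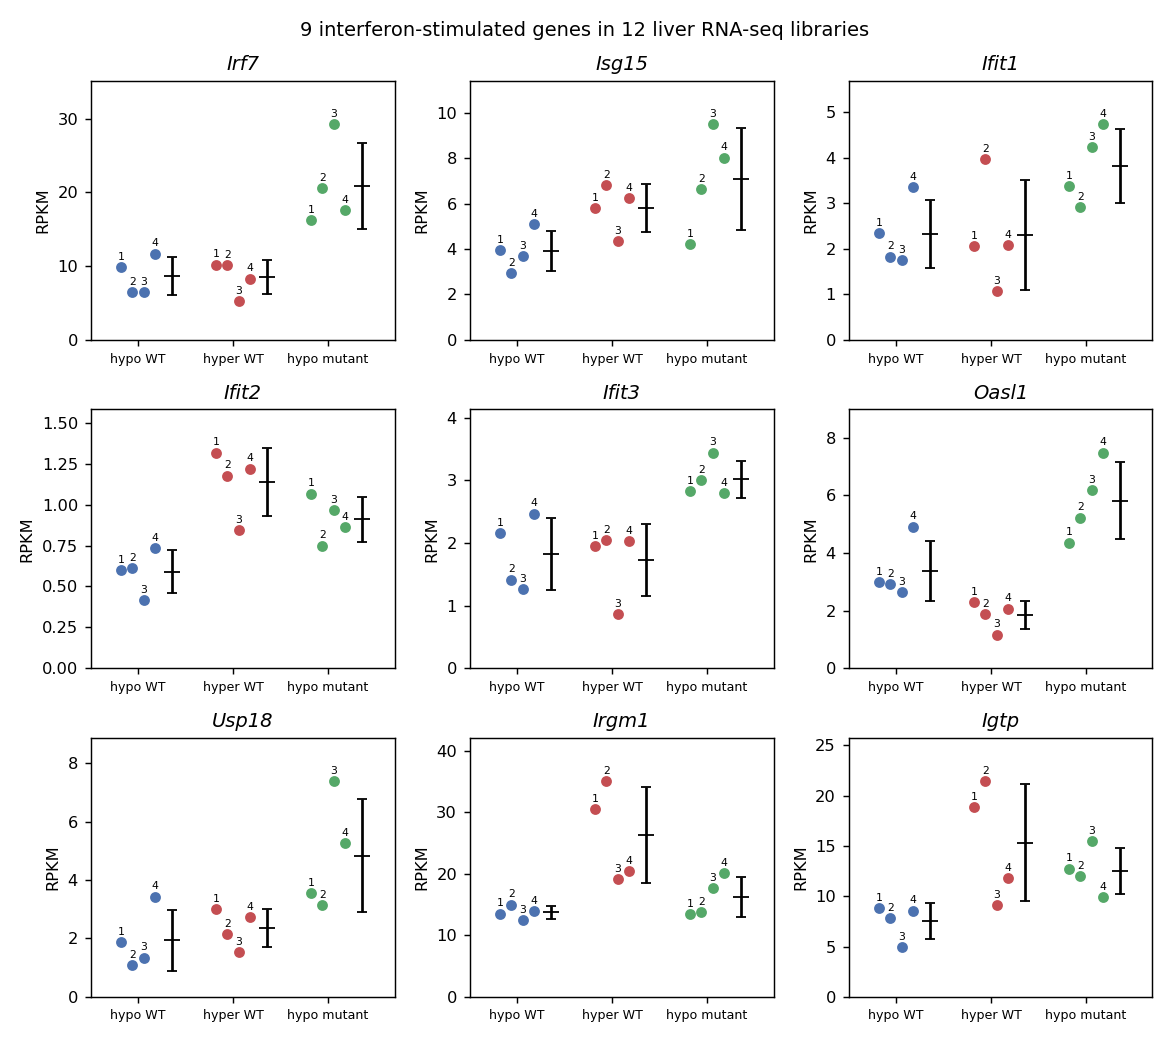
RPKM (vertical axes, linear, from 0) of the 9 interferon-stimulated genes in hypothyroid WT (blue), hyperthyroid WT (red) and hypothyroid L-NCOR1ΔID livers (green). Points are single libraries with their replicate number, and the bar beside them is the mean ± SD (n = 4). For Irf7 the 4 mutant libraries, 16.244 to 29.237 RPKM, sit above all 8 WT libraries, while for Irgm1 the 4 hyperthyroid libraries sit above all hypothyroid WT libraries.

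Irf7 encodes the transcription factor that amplifies interferon production once the pathway is on. Its level was 9.91, 6.475, 6.505 and 11.7 RPKM in the hypothyroid WT libraries (replicates 1 to 4) and 10.2, 10.1, 5.25 and 8.31 RPKM in the hyperthyroid WT libraries. In the L-NCOR1ΔID libraries it was 16.2, 20.6, 29.2 and 17.6 RPKM. The WT groups overlapped almost fully, and the mutant group stood clear of both. The log2 fold change was -0.03 ± 0.256 (SE) after T3 (limma adjusted p = 0.94) and 1.27 ± 0.238 in L-NCOR1ΔID against hypothyroid WT (limma adjusted p = 0.02), a 2.42-fold higher level that missed the threshold of 0.01. The table lists 3 Irf7 transcripts, and their values differed little, for example 29.2, 29.9 and 29.4 RPKM in mutant replicate 3.

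Isg15 encodes a ubiquitin-like protein that is attached to other proteins during an interferon response. It was at 3.94, 2.945, 3.68 and 5.09 RPKM in hypothyroid WT, at 5.80, 6.81, 4.355 and 6.245 RPKM in hyperthyroid WT and at 4.23, 6.645, 9.50 and 8.03 RPKM in L-NCOR1ΔID. The highest hypothyroid WT value lay above the lowest value of either other group. The log2 fold change was 0.56 ± 0.183 after T3 (limma adjusted p = 0.03) and 0.81 ± 0.248 in the mutant (limma adjusted p = 0.11). Usp18 encodes the protease that removes ISG15 and also dampens signalling at the type I receptor. Its level was 1.885, 1.08, 1.34 and 3.44 RPKM in hypothyroid WT, 3.00, 2.145, 1.54 and 2.74 RPKM in hyperthyroid WT and 3.56, 3.14, 7.40 and 5.28 RPKM in L-NCOR1ΔID. Only hypothyroid WT replicate 4 reached the range of the mutant libraries. The mutant mean was 2.52-fold that of hypothyroid WT on the log2(RPKM + 0.1) scale (log2 fold change 1.33 ± 0.368, limma adjusted p = 0.08), the largest difference of the 9 genes in that comparison, and the log2 fold change after T3 was 0.36 ± 0.337 (limma adjusted p = 0.39).

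The IFIT proteins bind RNA and interfere with the translation of viral messages. Ifit1 was at 2.35, 1.83, 1.75 and 3.35 RPKM in hypothyroid WT, 2.06, 3.96, 1.07 and 2.09 RPKM in hyperthyroid WT and 3.37, 2.92, 4.23 and 4.73 RPKM in L-NCOR1ΔID. Its hyperthyroid libraries spanned the whole hypothyroid WT range and more. Ifit3 was at 2.16, 1.42, 1.27 and 2.47 RPKM in hypothyroid WT, 1.95, 2.05, 0.868 and 2.03 RPKM in hyperthyroid WT and 2.82, 3.005, 3.44 and 2.80 RPKM in L-NCOR1ΔID, and here the mutant libraries overlapped with neither WT group. The log2 fold changes after T3 were -0.11 ± 0.351 for Ifit1 and -0.10 ± 0.303 for Ifit3 (limma adjusted p = 0.82 and 0.80), and those in the mutant were 0.72 ± 0.223 and 0.74 ± 0.204 (limma adjusted p = 0.11 and 0.08). Ifit3 has a near-identical neighbour, Ifit3b, and the authors' counting could split reads between them. The promoter window of Ifit3b repeats the 60 bases printed for Ifit3 without a difference, and its own level was 0.521 ± 0.1201 RPKM in hypothyroid WT, 0.5425 ± 0.0835 RPKM in hyperthyroid WT and 0.945 ± 0.291 RPKM in the mutant (SD, n = 4 each).

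Ifit2 was the lowest of the 9 genes, and its pattern was not that of Ifit1 and Ifit3. It was at 0.598, 0.61, 0.416 and 0.733 RPKM in hypothyroid WT, 1.32, 1.18, 0.842 and 1.22 RPKM in hyperthyroid WT and 1.07, 0.75, 0.965 and 0.86 RPKM in L-NCOR1ΔID. The 4 hypothyroid WT libraries were below all 8 others. After T3 the log2 fold change was 0.85 ± 0.192 (limma adjusted p = 0.0058), and 0.62 relative to the shift of all genes given below. In the mutant it was 0.56 ± 0.181 (limma adjusted p = 0.12). The lowest value corresponds to 12.1 reads per kilobase of transcript, the lowest of the 9 genes, so counting error can matter here. Total reads per gene were not estimated, and the part of counting error in the spread was not tested.

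Oasl1 encodes an oligoadenylate synthetase-like protein that lacks the enzyme activity of its family and restrains the translation of IRF7. It was at 2.98, 2.91, 2.65 and 4.92 RPKM in hypothyroid WT, 2.29, 1.88, 1.17 and 2.08 RPKM in hyperthyroid WT and 4.36, 5.23, 6.18 and 7.485 RPKM in L-NCOR1ΔID. The 4 hyperthyroid libraries lay below all others, the only member with this order. After T3 the log2 fold change was -0.82 ± 0.241 (limma adjusted p = 0.019), and in the mutant it was 0.79 ± 0.218 (limma adjusted p = 0.081), with 1 hypothyroid WT library, replicate 4, inside the mutant range.

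Irgm1 and Igtp (also called Irgm3) encode immunity-related GTPases, which interferon gamma induces strongly and which act on the membranes of vacuoles that hold microbes. Irgm1 was at 13.5, 15.0, 12.5 and 14.0 RPKM in hypothyroid WT, 30.6, 35.1, 19.1 and 20.4 RPKM in hyperthyroid WT and 13.4, 13.8, 17.7 and 20.1 RPKM in L-NCOR1ΔID. Among the hyperthyroid libraries, replicates 1 and 2 were well above replicates 3 and 4. After T3 the log2 fold change was 0.89 ± 0.187 (limma adjusted p = 0.0041), or 1.85-fold, and in the mutant it was 0.22 ± 0.135 (limma adjusted p = 0.39), the smallest difference of the 9 genes there. Igtp was at 8.825, 7.86, 4.98 and 8.575 RPKM in hypothyroid WT, 18.9, 21.5, 9.09 and 11.8 RPKM in hyperthyroid WT and 12.7, 12.03, 15.5 and 9.91 RPKM in L-NCOR1ΔID. The hypothyroid WT libraries were below both other groups, with log2 fold changes of 0.96 ± 0.284 after T3 (limma adjusted p = 0.02) and 0.74 ± 0.196 in the mutant (limma adjusted p = 0.072). Irgm2, the neighbouring relative of Igtp, has a promoter stretch that is identical to that printed for Igtp at 57 of 59 bases when both are aligned on the ISRE match. Irgm2 was at 6.17 ± 1.55, 12.7 ± 5.15 and 6.91 ± 1.55 RPKM in hypothyroid WT, hyperthyroid WT and L-NCOR1ΔID (SD, n = 4 each), so that its mutant mean, unlike that of Igtp, was close to the hypothyroid WT mean (log2 fold change 0.17, limma adjusted p = 0.70).

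**Figure D2:**
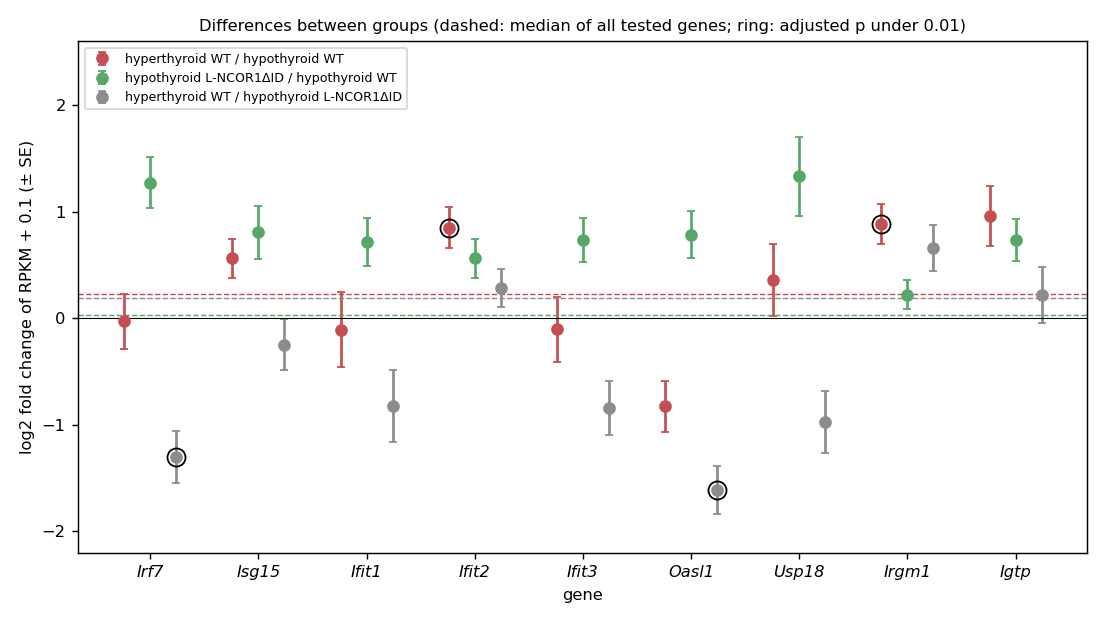
Log2 fold change (vertical axis, with SE) of each of the 9 genes in the 3 comparisons, from 4 libraries per group. Dashed lines give the median of all tested genes in the same comparison, and rings mark an adjusted p under 0.01. In the comparison of L-NCOR1ΔID with hypothyroid WT (green) the 9 points lie between 0.22 and 1.33, all above the line of 0.03, while after T3 (red) they lie on both sides of zero.

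Counted over the 9 genes, 0 were called higher and 0 lower after T3 by limma with the study's thresholds (adjusted p under 0.01 and more than 1 in size), beside 8.28% and 3.47% of 13941 genes tested. With the adjusted p alone, 2 of 9 were higher and 0 lower, beside 24.5% and 7.71% of all genes. At an unadjusted p under 0.05, 4 were higher (Isg15, Ifit2, Irgm1 and Igtp) and 1 lower (Oasl1), beside 42.9% and 13.6% of all genes. The groups did not overlap for 3 genes that were higher (Ifit2, Irgm1 and Igtp) and 1 that was lower (Oasl1), beside 35.8% and 10.8% of all genes. These shares are near the background, since T3 moved many genes and the log2 fold change had a median of 0.23 over all genes tested. Relative to that shift, the values were 0.65 for Irgm1, 0.73 for Igtp, 0.33 for Isg15 and -1.06 for Oasl1. When libraries were instead scaled to equal medians of gene ratios, the adjusted p of Ifit2 and Irgm1 became 0.036 and 0.038, and all genes called with the size threshold turned from 1155 higher and 484 lower to 747 and 681.

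Leaving out 1 library at a time changed which members passed after T3. Without hyperthyroid replicate 3, the lowest library for each of the 9 genes, Irgm1 (log2 fold change 1.02, limma adjusted p = 0.0024) and Igtp (1.18, adjusted p = 0.0071) passed both thresholds, and Ifit2, Irgm1 and Igtp passed the adjusted p. In that fit 994 of 13695 genes tested were higher by both thresholds and 463 were lower. Without hypothyroid replicate 1 or 3 or hyperthyroid replicate 1, 0 of 9 passed the adjusted p of 0.01, and without hypothyroid replicate 2 or 4 or hyperthyroid replicate 2 or 4, 1 of 9 did. With all libraries 24.5% of all genes were higher at that p, and no such share is given for the fits with 1 library left out. These counts are therefore not a result about the members.

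In L-NCOR1ΔID livers, compared with the same hypothyroid WT libraries, limma called 0 of 9 genes higher and 0 lower at an adjusted p of 0.01, beside 0.725% and 0.544% of 13790 genes tested. At an unadjusted p under 0.05, 8 of 9 were higher (all but Irgm1), beside 12.8% of all genes, and 0 lower, beside 7.77%. The groups did not overlap for 4 of the 9 genes (Irf7, Ifit2, Ifit3 and Igtp, all higher in the mutant), beside 7.78% of all genes, and for 0 that were lower, beside 5.36%. The median log2 fold change was 0.74 over the 9 genes and 0.03 over all genes tested. Here the shift of all genes was small, and no member changed direction when libraries were scaled to equal medians of gene ratios or when any 1 library was left out. Both comparisons use the same 4 hypothyroid WT libraries, so a low value there raises both differences at once.

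To order the 3 groups, hyperthyroid WT was also compared with L-NCOR1ΔID, where hormone and genotype differ together. Irf7 and Oasl1 were lower in hyperthyroid WT, by a log2 fold change of -1.30 ± 0.243 (limma adjusted p = 0.0035) and -1.61 ± 0.227 (limma adjusted p = 0.00087), that is 2 of 9 lower beside 5.7% of 14017 genes, and 0 of 9 higher beside 15.5%. The groups did not overlap for 4 genes that were lower in hyperthyroid WT (Irf7, Ifit3, Oasl1 and Usp18), beside 9.57% of all genes, and for 0 that were higher, beside 28.7%. The call of Irf7 was lost without a filter on low values (limma adjusted p = 0.021). With libraries scaled to equal medians, both genes still passed, while the count over all genes turned from 2176 higher and 799 lower to 1051 and 1286. Thus Oasl1 had its lowest level with hormone and its highest in the mutant, and the highest and lowest groups differed past the threshold while the neighbours in this order did not. For Irf7 the mutant mean was highest, past the threshold against hyperthyroid WT and short of it against hypothyroid WT, and the WT groups could not be ordered. For Ifit2 hyperthyroid WT was highest and hypothyroid WT lowest, and only these outer groups differed past the adjusted p. For Irgm1 the order of means was hyperthyroid WT (26.3 ± 7.78 RPKM), L-NCOR1ΔID (16.3 ± 3.23 RPKM) and hypothyroid WT (13.7 ± 1.06 RPKM), of which only the outer groups differed past the adjusted p. For the other members except Ifit2, no neighbours and no outer groups differed at the adjusted p of 0.01.

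The libraries of 1 group tended to be high or low for many of the 9 genes together. Hyperthyroid WT replicate 3 was the lowest of its group for 9 of 9 genes, with a median deviation of -0.58 on the log2 scale from the group mean. Hypothyroid WT replicate 4 was the highest of its group for 7 of 9 genes (0.46), all but Irgm1 and Igtp, and replicate 3 the lowest for 6. In L-NCOR1ΔID, replicate 3 was the highest for 5 genes (Irf7, Isg15, Ifit3, Usp18 and Igtp). Over the 12 libraries, taken as deviations from their group means, the 36 pairs of members had Pearson's r from 0.217 (Isg15 and Ifit2) to 0.899 with a median of 0.683 (median Spearman's rho 0.654). These points share library preparation and depth, and 3 group means were removed from them, so the correlations are descriptions only.

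**Figure D3:**
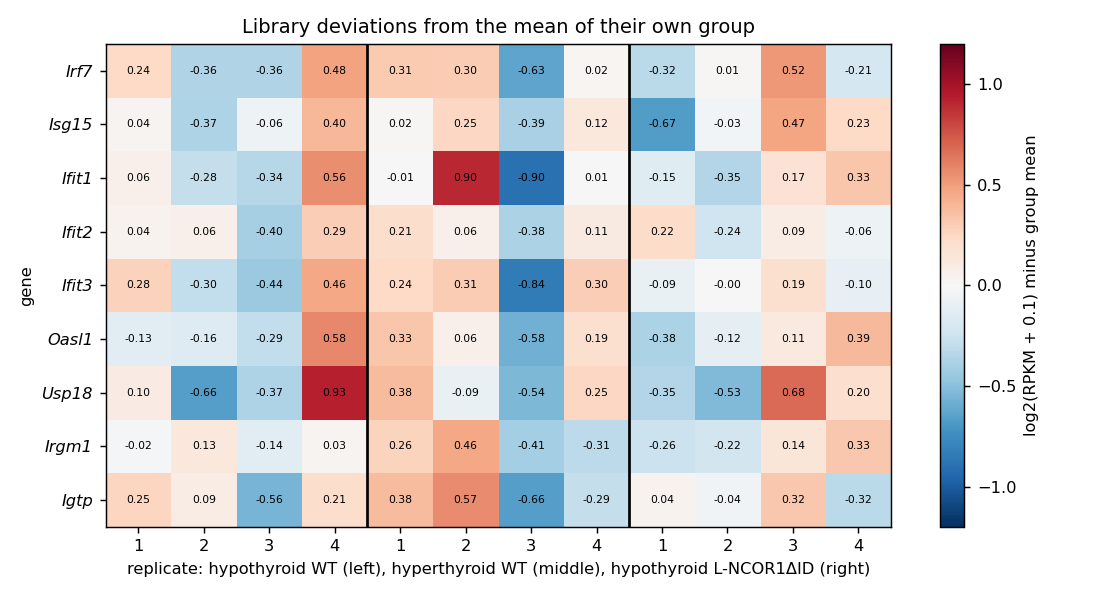
Deviation of each library (columns, by replicate within the 3 groups) from the mean of its group, as log2(RPKM + 0.1), for the 9 genes (rows). The column of hyperthyroid WT replicate 3 is blue (below the mean) in each of the 9 rows, and that of hypothyroid WT replicate 4 is red (above the mean) in each.

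The genes outside the 9 whose deviations were most like the mean deviation of the members, among 10663 genes with a mean of at least 1 RPKM, were Zfp36 (r = 0.882), H2-T9 (0.876), Gc (0.874), H2-T22 (0.864), Sntg2 (0.864) and Plin3 (0.862), each over 12 libraries. Their Spearman's rho was 0.783 to 0.860. H2-T9 and H2-T22 are class I histocompatibility genes that are near-identical copies, so the authors' counting could split reads between them and their values are uncertain. Zfp36, which encodes a protein that speeds the decay of inflammatory mRNAs, was at 26.7 RPKM in hyperthyroid WT replicate 3 and at 32.3 to 42.3 RPKM in the other hyperthyroid libraries. Of the 20 genes most alike, 3 were on the lists of the pathway used here. The share of listed genes among the 10663 compared is not given, so this count cannot be read as high or low.

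The wider pathway was read from lists of its genes. Other type I interferon-stimulated genes were all tested, and 21 of 35 rose after T3 at the adjusted p of 0.01, 9 of them by more than 1 on the log2 scale, and 0 fell. Over all genes, 24.5% were higher and 7.71% lower at that p, and 8.28% were higher with the size threshold. The leading genes were Oas3, Oas2, Sp100 and Samhd1. The oligoadenylate synthetases, which sense double-stranded RNA and make the messenger that activates RNase L, were low in hypothyroid WT, with Oas3 at 0.0695 ± 0.0255 RPKM (SD, n = 4) against 0.5625 ± 0.126 RPKM in hyperthyroid WT (log2 fold change 1.96, limma adjusted p = 9.1e-05). Oas2 stood at 0.4735 ± 0.0866 and 1.54 ± 0.286 RPKM (1.51, limma adjusted p = 0.00016). Sp100, a component of nuclear bodies, stood at 1.60 ± 0.189 and 3.46 ± 0.284 RPKM (1.07, limma adjusted p = 0.00014), and Samhd1, which depletes nucleotides needed by viruses, at 3.985 ± 0.166 and 6.92 ± 0.603 RPKM (0.78, limma adjusted p = 0.00015). Oasl2, the enzymatically active relative of Oasl1, rose from 0.5885 ± 0.136 to 1.76 ± 0.417 RPKM (1.42, limma adjusted p = 0.00051), opposite in sign to Oasl1. The median of the list was 0.71, beside 0.23 for all genes, and with libraries scaled to equal medians 10 of 35 rose and 1 fell. For the scaled libraries no share over all genes at that p is given, for this list or for those below. The same holds for the fits after T3 with 1 library left out. Leaving out any 1 library gave 14 to 20 genes that rose.

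In L-NCOR1ΔID livers, 2 of the same 35 genes rose and 0 fell, beside 0.725% and 0.544% of all genes, with a median of 0.59 beside 0.03 for all genes. These were Bst2 and Oas1a. Bst2, which encodes tetherin, a membrane protein that holds budding viruses at the cell surface, was at 70.7, 80.8, 77.6 and 72.1 RPKM in hypothyroid WT and at 172, 158, 208 and 162 RPKM in the mutant (log2 fold change 1.21 ± 0.098, limma adjusted p = 0.00042). The groups were far apart, and the hyperthyroid WT libraries, at 154, 125, 128 and 183 RPKM, were also above all hypothyroid WT libraries. Oas1a was at 0.136, 0.307, 0.182 and 0.194 RPKM in hypothyroid WT and at 0.781, 0.766, 1.14 and 0.684 RPKM in the mutant (log2 fold change 1.64 ± 0.219, limma adjusted p = 0.0047). Of these 35 genes, promoter matches are given by gene only for Bst2, Oas1a, Ifit3b and Oasl2, so no share over the list is known. Bst2 and Oas1a are the 2 genes that passed in the mutant, so they do not stand for the list. The ISRE core was found in the windows of Bst2, Oas1a and Ifit3b and not in that of Oasl2, beside 3.44% of all windows. A GAS core was found in the windows of Bst2 and Oas1a as well, beside 8.3% of all windows. In Bst2 the GAS match shares bases with an ISRE match, and in Oas1a it lies apart from them. The stretches around the ISRE matches are chr8:71537565-71537624 (minus strand) for Bst2 and chr5:120907526-120907585 (minus strand) for Oas1a.
Bst2: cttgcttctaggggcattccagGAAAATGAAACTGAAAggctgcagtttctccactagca
Oas1a: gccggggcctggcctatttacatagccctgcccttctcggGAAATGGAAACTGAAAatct
Without hypothyroid WT replicate 1, 3 or 4 or L-NCOR1ΔID replicate 1, 2 or 3, 1 of these genes passed in place of 2. Against hyperthyroid WT, 4 of the 35 genes (Oas3, Samhd1, Dtx3l and Parp9) were higher with hormone than in the mutant and 0 lower, a share below the 15.5% of all genes that were higher.

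Of 26 genes induced by interferon gamma or serving antigen presentation, 5 rose after T3 (Gbp3, Irf1, H2-D1, Gbp5 and Gbp2), 4 of them by more than 1, and 0 fell. The share that rose at the adjusted p is below the 24.5% of all genes, so the count of 5 is not a result about the list. The 4 of 26 past the size threshold as well stand beside 8.28% of all genes. Gbp3, a guanylate-binding GTPase, rose from 0.790 ± 0.193 to 6.75 ± 2.94 RPKM (a log2 difference of 2.86, limma adjusted p = 0.00011), and Irf1, a transcription factor of this branch, from 4.30 ± 0.503 to 11.0 ± 4.16 RPKM (1.26, limma adjusted p = 0.0021). H2-D1, a class I presenting molecule, rose from 150 ± 12.7 to 207 ± 20.6 RPKM (0.47, limma adjusted p = 0.0038). Gbp5, a relative of Gbp3, averaged 0.313 ± 0.0818 and 1.58 ± 1.21 RPKM (1.81, limma adjusted p = 0.0048). In the mutant 0 of 26 passed in either direction by limma, beside 0.725% of all genes higher and 0.544% lower. With equal medians 2 of 26 rose after T3, and 2 rose without hypothyroid replicate 2 or 3 and 3 without hyperthyroid replicate 1.

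Receptors and signal transducers were tested for 15 of 16 genes, since Ifnlr1 was below the filter. After T3, 7 rose (Jak1, Stat2, Irf8, Ifngr1, Irf5, Jak2 and Irf3) and 1 fell (Irf2), beside 24.5% and 7.71% of all genes. Stat2, a part of the complex that binds the ISRE, rose from 11.2 ± 1.65 to 22.2 ± 2.55 RPKM (a log2 difference of 0.98, limma adjusted p = 0.00025), and Jak1, a receptor kinase, from 20.7 ± 0.683 to 31.99 ± 2.88 RPKM (0.62, limma adjusted p = 0.00025). Irf8, a factor of macrophages and other myeloid cells, rose from 1.465 ± 0.142 to 2.88 ± 0.273 RPKM (0.93, limma adjusted p = 0.00026). Irf2, a repressor at ISREs, fell from 28.25 ± 2.61 to 18.9 ± 0.901 RPKM (-0.57, limma adjusted p = 0.00043). Ifngr1, a receptor chain for interferon gamma, rose from 5.75 ± 0.383 to 9.66 ± 1.75 RPKM (0.72, limma adjusted p = 0.0019). Irf9, another part of that complex (7.93 ± 0.960 and 14.1 ± 4.45 RPKM, limma adjusted p = 0.011), did not pass, and Ifnar1 was at 5.98 ± 0.325 and 6.06 ± 0.613 RPKM (limma adjusted p = 0.90). In the mutant 0 of 15 passed in either direction, beside 0.725% of all genes higher and 0.544% lower. Stat2 was there at 11.8 ± 1.91, Irf9 at 10.1 ± 1.496 and Ifnar1 at 6.30 ± 0.306 RPKM. With equal medians 4 of 15 rose after T3 and 2 fell, and 4 rose without hypothyroid replicate 1 or 4.

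Sensors of foreign nucleic acid and their adaptors, which start interferon production, rose after T3 in 10 of 11 genes tested and fell in 0, beside 24.5% and 7.71% of all genes. Ikbke, a kinase that activates IRF3 and IRF7, rose from 6.25 ± 0.525 to 12.8 ± 0.837 RPKM (a log2 difference of 1.03, limma adjusted p = 3.4e-05). Tlr7, the receptor for single-stranded RNA, rose from 0.206 ± 0.0356 to 0.828 ± 0.206 RPKM (1.58, limma adjusted p = 0.00031), and Tlr3, that for double-stranded RNA, from 0.870 ± 0.0855 to 1.64 ± 0.0724 RPKM (0.84, limma adjusted p = 0.00044). Traf3, an adaptor between sensors and kinases, rose from 1.87 ± 0.312 to 3.63 ± 0.282 RPKM (0.93, limma adjusted p = 0.00051). In L-NCOR1ΔID livers 0 of 11 passed by limma in either direction, beside 0.725% of all genes higher and 0.544% lower. With equal medians 5 of 11 rose after T3, and 6 rose without hypothyroid replicate 1 or 4. The interferons themselves were at or near the floor, with 16 of 18 ligand genes listed at 0 in all hyperthyroid libraries and a summed level of at most 0.181 RPKM in any library, all of it Ifnk and Ifng.

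**Figure D4:**
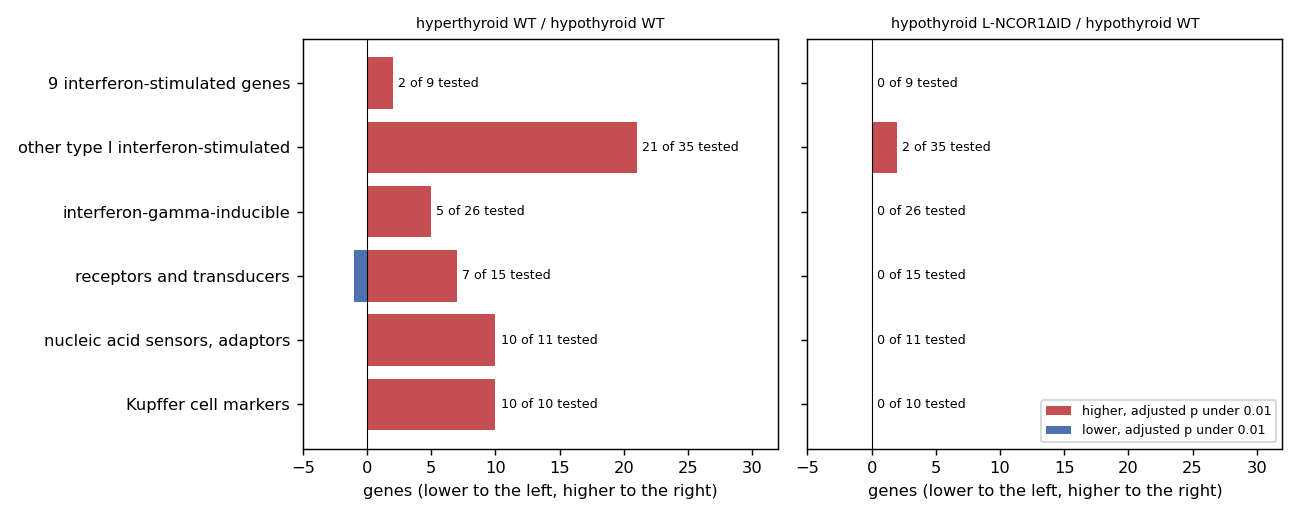
Number of genes (horizontal axis) per list that were higher (red, to the right) or lower (blue, to the left) at a limma adjusted p under 0.01, after T3 (left panel) and in L-NCOR1ΔID (right panel), each against hypothyroid WT. After T3 the bars are 2 of 9 for the 9 genes, 21 of 35 for other type I genes and 10 of 10 for Kupffer cell markers, while in the mutant the only bar is 2 of 35. Over all genes, 24.5% were higher after T3 and 0.725% in the mutant at that p.

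Markers of other cells moved with the groups. The Kupffer cell and macrophage markers rose after T3 in 10 of 10 genes, and their summed level was 86.4 to 122 RPKM in hypothyroid WT, 252 to 379 RPKM in hyperthyroid WT and 88.9 to 240 RPKM in L-NCOR1ΔID. The markers with the smallest adjusted p after T3 were C1qb (15.9 ± 2.49, 48.8 ± 6.04 and 21.4 ± 10.2 RPKM in hypothyroid WT, hyperthyroid WT and L-NCOR1ΔID), Clec4f (13.9 ± 2.05, 54.0 ± 11.2 and 15.0 ± 1.24 RPKM), Cd5l (15.7 ± 3.34, 65.1 ± 13.7 and 30.1 ± 15.0 RPKM) and C1qa (17.45 ± 2.69, 45.3 ± 5.395 and 22.2 ± 8.86 RPKM). In the mutant 0 of 10 markers passed by limma in either direction, beside 0.725% of all genes higher and 0.544% lower. All 10 had a positive log2 fold change, from 0.08 for Timd4 to 3.16 for Marco (limma adjusted p = 0.10). Marco was at 29.1 RPKM in mutant replicate 2 and at 0.647 to 4.62 RPKM in the other mutant libraries. The highest marker sum of the mutant came from replicate 2, which was not the highest library for any of the 9 genes. Hyperthyroid replicate 3 had the highest sum of all and the lowest level of its group for 9 of 9 members. The part of these markers in the values of the 9 genes and their relatives was not tested. The neutrophil genes S100a8 and S100a9 also rose after T3, with a summed level of the neutrophil markers of 0.177 to 0.748 RPKM in hypothyroid WT and 1.70 to 19.1 RPKM in hyperthyroid WT. In L-NCOR1ΔID that sum was 0.278 to 1.79 RPKM, and 1 of the 4 neutrophil markers was listed at 0 in all libraries of each WT group. Siglech, the defining marker of plasmacytoid dendritic cells, the main source of type I interferon, was at 0.108 RPKM or less in each library, although the sum of that list reached 13.1 RPKM in hyperthyroid replicate 3 through Klk1 alone (12.7 RPKM), a gene named after its values were seen. Among the remaining lists, tested after T3, 2 of 5 endothelial cell markers (Lyve1 and Pecam1) and 1 of 4 stellate cell markers (Lrat) rose, 1 of 4 cholangiocyte markers rose (Krt7) and 1 fell (Sox9), and 0 of 8 T and NK cell markers and 0 of 4 B cell markers passed by limma. These counts of 1 or 2 genes are read beside the 24.5% of all genes that were higher and the 7.71% that were lower. In L-NCOR1ΔID livers 0 markers of these lists passed, beside 0.725% of all genes higher and 0.544% lower. The groups did not overlap for 1 of 5 endothelial, 1 of 4 stellate and 1 of 8 T and NK cell markers tested. There were 0 of 4 such cholangiocyte and 0 of 3 such B cell markers. Each count is read beside 7.78% of all genes higher and 5.36% lower without overlap. The 3 markers were Lyve1 (log2 fold change 1.80, limma adjusted p = 0.042), Col1a1 (2.01, limma adjusted p = 0.071) and Cd3e (-2.02, limma adjusted p = 0.027), named after their values were seen. They do not stand for their lists, where the signs were mixed. The log2 fold change was positive for 3 of 5 endothelial, 2 of 4 stellate and 2 of 8 T and NK cell markers. The part of these markers in the higher means of the 9 genes in the mutant was not tested. The T and NK cell markers summed to at most 4.91 RPKM and the B cell markers to at most 2.04 RPKM in any library.

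**Figure D5:**
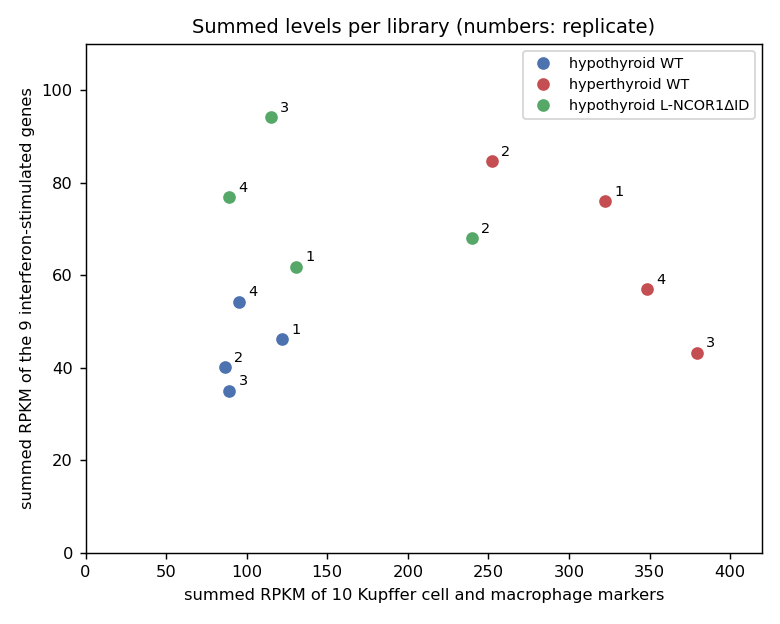
Summed RPKM of the 9 interferon-stimulated genes (vertical axis) against summed RPKM of 10 Kupffer cell and macrophage markers (horizontal axis) in the 12 libraries, numbered by replicate. The L-NCOR1ΔID libraries reach 61.8 to 94.2 RPKM for the 9 genes, above the 35.1 to 54.3 RPKM of hypothyroid WT, at marker sums that overlap those of hypothyroid WT except in replicates 1 and 2.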

How the data were processed

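RNA from 12 mouse livers, 4 per group of 56 samples in the series, was used. Per the labels, each sample had runs on a HiSeq and on a NovaSeq instrument. The authors deposited RPKM values per RefSeq transcript (mm9), and the submitters' processing notes name STAR, HOMER and DESeq2. The table had 31370 rows, of which 1 named no gene, and the first row of each of 23813 genes was taken. A gene entered a comparison when 4 or more of its libraries reached 0.1 RPKM, and log2(RPKM + 0.1) was tested with limma 3.58.1 (R 4.3.3, variance trend, Benjamini-Hochberg over all genes tested), a scale that understates changes of low genes. The study tested counts, which were not used here. Genes were called at an adjusted p of 0.01, and after T3 also had to differ by more than 1 (log2) in size. The test was checked on simulated data.

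The members and the lists were chosen with earlier results of these data known. From each list, the 4 genes with the smallest adjusted p were named where they passed, with Stat2, Irf9, Ifnar1, Ifngr1, Oasl2, Irgm2 and Ifit3b, the checks Ncor1, Thrsp and Dio1, and the 6 genes most alike. A gene that this rule also names is not reported here. Depth was estimated from the steps between low RPKM values and GENCODE M1 transcript lengths. Gene starts came from GENCODE M1, because the RNA table held no coordinates, and promoters from RefSeq (GRCm38.p6). The authors' list of acetylated regions was deposited as positions only. Alternatives covered the pseudocount, filters, scaling, a shared fit, the replicate block, the variance trend, thresholds, the choice of transcript and each library left out.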

Additional observations from a re-analysis of the deposited data

Results flagged for a closer look

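In 2 of 27 groups of 4 values (9 genes in 3 groups), the end value stood further from its neighbour than the 95% limit of Dixon's test for 4 values allows, and chance gives about 1 in 20. Ifit3 in hyperthyroid WT replicate 3 was at 0.868 RPKM, below the other libraries of its group at 1.95 to 2.05 RPKM. Oasl1 in hypothyroid WT replicate 4 was at 4.916 RPKM, above the others at 2.65 to 2.98 RPKM. Hyperthyroid replicate 3 was also the lowest library of its group for the other 8 genes.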

How the results depend on the processing

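In the 9 genes, 109 counts moved by less than 1.5 times and 7 by more, and of the values of single genes 494 kept direction and call, 7 turned direction, 8 gained a call and 2 lost one. After T3, 0 of 9 genes were called, against 2 with no size threshold and 0 to 2 with 1 library left out. Over those libraries the log2 fold change ran from -0.15 to 0.18 for Irf7, from -0.41 to 0.19 for Ifit1 and from -0.25 to 0.18 for Ifit3. In L-NCOR1ΔID, 0 became 1 (Irf7) at an adjusted p of 0.05. In hyperthyroid WT against L-NCOR1ΔID, 2 lower genes became 1 without a filter (more genes tested) and 1 with the replicate block, and 4 lower and 1 higher at an adjusted p of 0.05. The cause of the other moves was not tested.

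Replicate numbers did not pair the libraries. Same-numbered libraries correlated at -0.059 to 0.074 after T3, -0.123 to 0.166 in L-NCOR1ΔID and -0.08 to 0.01 in the third comparison, and 4, 3 and 0 of 8 libraries correlated best with their own number. With the replicate block, Irf7 lost its call against hyperthyroid WT (limma adjusted p = 0.018), and all genes called fell from 100 higher and 75 lower to 20 and 25 in L-NCOR1ΔID, and from 2176 and 799 to 1152 and 490 in the third comparison.

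Over all genes, the calls after T3 were 575 higher and 319 lower with a pseudocount of 1, 3413 and 1075 with no size threshold, and 747 and 681 with scaling to equal medians. With 1 library left out they were 994 to 1139 higher and 383 to 485 lower. In L-NCOR1ΔID they were 21 and 22 without a filter, 63 and 57 without the variance trend, 136 and 115 with all 12 libraries in 1 fit, 344 and 257 at an adjusted p of 0.05, and 36 to 110 higher and 28 to 77 lower with 1 library left out. In the third comparison they were 1292 and 477 without a filter, 3995 and 1412 at an adjusted p of 0.05, 774 and 421 with a size threshold, and 1182 to 1905 higher and 469 to 767 lower with 1 library left out. Ifit2 had no value with a mean of at least 1 RPKM in the comparisons with hypothyroid WT, and the region count with another transcript was not run. Region counts were 9 of 9 within 1 and 100 kb, beside 87.1% and 98.8% of expressed genes. Among the 9 genes, Ifit2 had the lowest range of reads per kilobase, at 12.1 to 43.4.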
